A study of Arabidopsis thaliana with 4 samples.

Results

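Dehydrins and a small set of other stress-inducible genes were examined in the inflorescence stem of Arabidopsis plants that lack *MSIL2* and *MSIL4*. The genes are the dehydrin genes *XERO2* (AT3G50970), *ERD10* (AT1G20450) and *COR47* (AT1G20440), the stress gene *RD29A* (AT5G52310), and *HIS1-3* (AT2G18050), which encodes a linker histone. These 5 genes were picked by identifier from the deposited table of transcripts that are lower in *msil2/4*, which holds 78 genes. A second deposited table holds the 156 genes that are higher in *msil2/4*. The table of lower transcripts was itself made from the difference between the genotypes. The genotype differences given here are therefore the values that chose the genes, and no test is attached to them.

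Messenger RNA was sequenced from the basal part of the inflorescence stem of mature plants, in 2 *msil2/4* libraries and 2 Col-0 libraries. The *msil2/4* double mutant combines T-DNA insertions in *MSIL2* and *MSIL4*, which encode Musashi-like RNA-binding proteins, and its labels call the genotype a knockdown. Col-0 is the wild type without these insertions. Both genotypes were grown in long days with no treatment, so no cold, drought or hormone was applied to either of them. One allele of each gene was used, the labels give neither the age of the plants nor how many were pooled, and nothing in them says that the replicates came from separate plants, although the checklist of the study calls replicates biological.

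Dehydrins are hydrophilic, largely unstructured proteins that plants accumulate during cold, drought and seed drying, and they are thought to protect membranes and enzymes when water is scarce. Their hallmark is a lysine-rich stretch, the K-segment, which can fold against membranes. Many of these genes respond to abscisic acid (ABA), the drought hormone, through ABA-responsive elements, and to cold through the dehydration-responsive element (DRE), which CBF and DREB transcription factors bind. *RD29A* is the classic reporter gene for both routes. HIS1-3 is the drought-inducible member of the Arabidopsis linker histones, the proteins that bind DNA between nucleosomes.

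The K-segment is shown first because it is what makes *COR47*, *ERD10* and *XERO2* one family. The coding sequence of the last copy in each gene is given in the TAIR10.1 assembly, read 5′ to 3′ on the coding strand, with the 8 codons that gave the match in capitals.
COR47, copy 3, chr1:7084779-7084823, minus strand: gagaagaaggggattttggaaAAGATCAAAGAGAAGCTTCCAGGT
ERD10, copy 2, chr1:7088289-7088333, minus strand: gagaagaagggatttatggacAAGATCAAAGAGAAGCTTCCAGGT
XERO2, copy 6, chr3:18941350-18941394, plus strand: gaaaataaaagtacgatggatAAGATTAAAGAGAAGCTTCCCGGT
The capital stretch was identical between *COR47* and *ERD10* at all 24 bases, and *XERO2* differed from both at 2 of 24. Over the whole 45 bases, 41 were identical between *COR47* and *ERD10*, and 34 between *XERO2* and each of the other two. The last copies are among the most alike. Over every pair of copies, 21 to 24 of the 24 bases were identical between *COR47* and *ERD10*, and 17 to 22 between *XERO2* and either of them.

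*COR47* held 3 copies of the motif, *ERD10* held 2 and *XERO2* held 6. The search pattern allowed several residues at 5 of its 8 positions, and it was widened after a stricter form had found only 1 copy in *XERO2*. Among the 27373 annotated proteins the wide pattern occurred in 8, and all 8 were on the list of 10 dehydrins. COR47 and ERD10 also hold a run of 7 serines, as do *ERD14*, *XERO1* and AT2G21490 among the dehydrins on the list, while XERO2 has no 2 serines in a row. COR47 and ERD10 are acidic, with 22.6% and 19.6% glutamate against 8.29% in XERO2, which is rich in histidine instead (13.5% of residues, against 4.91% in COR47 and 4.23% in ERD10).

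In the deposited values, RPKM (read counts corrected for transcript length and sequencing depth), each of the 5 genes was lower in both *msil2/4* libraries than in both Col-0 libraries. Of all genes in both tables, 78 (33.3%) showed that pattern, namely every gene of the table from which these 5 were taken, so the count of 5 of 5 follows from the choice of the genes. In bulk tissue, fewer cells that express a gene and less RNA per cell cannot be told apart. Total reads per library are not in the tables, and the labels give 30000000 reads per library, a depth at which 1 read on a transcript of 1 kb would be 0.0333 RPKM. All 20 values of the 5 genes were far above that level, the lowest being 6.29 RPKM.

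**Figure D1:**
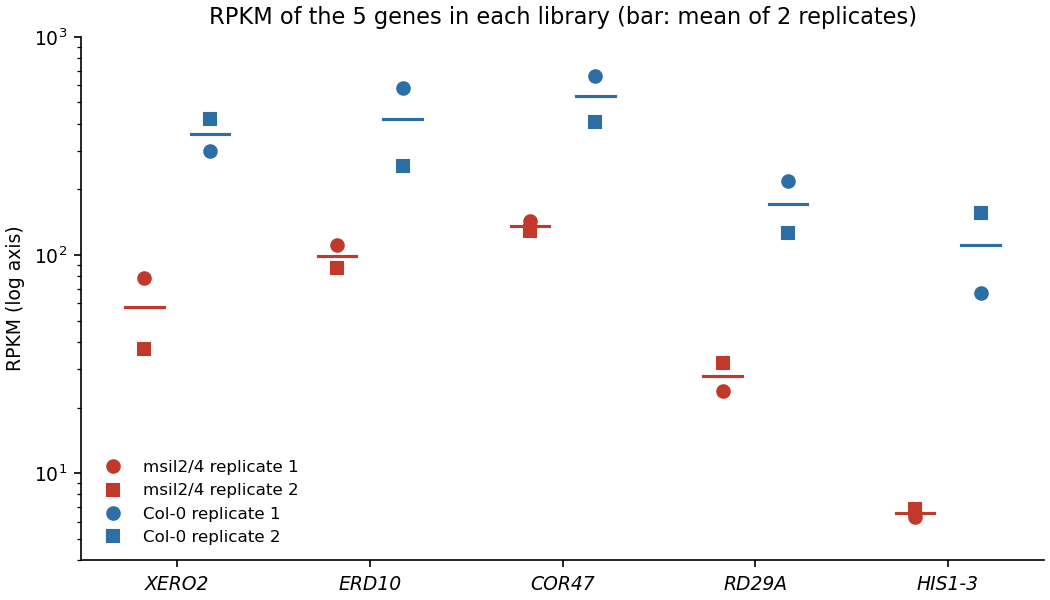
RPKM of each gene (log axis) in the *msil2/4* libraries (red, left of each pair) and the Col-0 libraries (blue, right), with circles for replicate 1, squares for replicate 2 and a bar at the mean of 2 replicates. The red points lie below the blue points for all 5 genes, and *HIS1-3* has both the lowest *msil2/4* values, 6.29 and 6.86 RPKM, and the widest gap.

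*COR47* encodes an acidic dehydrin first known as a cold-regulated gene. It had 143 and 129 RPKM in *msil2/4* replicates 1 and 2, against 662 and 408 RPKM in Col-0 replicates 1 and 2. Both *msil2/4* libraries were low and close together, and the Col-0 libraries lay at least 2.84-fold above them. The means were 136 ± 10.5 RPKM in *msil2/4* and 535 ± 180 RPKM in Col-0 (SD, n = 2 each), a 3.94-fold difference, and the log2 fold change was -1.93 with a standard error of 0.38. All log2 fold changes are *msil2/4* minus Col-0 on the scale of log2(RPKM + 1), with standard errors from limma. *COR47* had the highest mean of all listed genes in Col-0, and it stayed the highest of the 78 lower genes in *msil2/4*.

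*ERD10* encodes the second acidic dehydrin, named for early response to dehydration. It had 112 and 87.0 RPKM in *msil2/4*, against 581 and 255 RPKM in Col-0. The Col-0 libraries were far apart, with replicate 1 at 2.28 times replicate 2, whereas the *msil2/4* libraries differed 1.28-fold. The means were 99.3 ± 17.4 RPKM in *msil2/4* and 418 ± 231 RPKM in Col-0 (SD, n = 2 each), and the log2 fold change was -1.95 with a standard error of 0.49. It became -1.36 without Col-0 replicate 1 and -2.55 without Col-0 replicate 2, so the size of the difference, though not its direction, rested on which Col-0 library was used.

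*XERO2*, also called *LTI30* for low-temperature induced, encodes a dehydrin of the type that binds membranes. It had 78.6 and 37.3 RPKM in *msil2/4*, against 299.9 and 420 RPKM in Col-0. It was the one gene of the 5 whose *msil2/4* libraries spread more than its Col-0 libraries, 2.11-fold against 1.40-fold. The means were 57.9 ± 29.2 RPKM in *msil2/4* and 360 ± 85.2 RPKM in Col-0 (SD, n = 2 each), a 6.22-fold difference, with a log2 fold change of -2.69 and a standard error of 0.47. Summed over these 3 dehydrins, the level was 334 and 253 RPKM in *msil2/4*, against 1543 and 1083 RPKM in Col-0.

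*RD29A*, also called *LTI78*, encodes a large hydrophilic protein that is not a dehydrin. It had 23.7 and 32.1 RPKM in *msil2/4*, against 218 and 126 RPKM in Col-0. The lowest Col-0 value was 3.92 times the highest *msil2/4* value. The means were 27.9 ± 5.93 RPKM in *msil2/4* and 172 ± 65.1 RPKM in Col-0 (SD, n = 2 each), a 6.16-fold difference, with a log2 fold change of -2.54 and a standard error of 0.41.

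*HIS1-3* had 6.29 and 6.86 RPKM in *msil2/4*, against 67.0 and 156 RPKM in Col-0. The *msil2/4* libraries were almost equal, 1.09-fold apart, and the Col-0 libraries were 2.32-fold apart, with the lower of them still 9.77 times the higher *msil2/4* value. The means were 6.58 ± 0.403 RPKM in *msil2/4* and 111 ± 62.6 RPKM in Col-0 (SD, n = 2 each), a 16.9-fold difference. The log2 fold change was -3.77 with a standard error of 0.48, and it was -4.37 without Col-0 replicate 1 and -3.17 without Col-0 replicate 2. *HIS1-3* ranked 28th of the 78 lower genes by its Col-0 mean and 55th by its *msil2/4* mean.

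Within the table of 78, *HIS1-3* had the 3rd lowest log2 fold change, *XERO2* ranked 6th, *RD29A* 10th, *ERD10* 26th and *COR47* 29th. By the ratio of the deposited values per genotype, the ranks in the same order were 4th, 12th, 14th, 33rd and 42nd. The median log2 fold change was -2.54 over the 5 genes, -1.80 over the table of 78 and 1.71 over both tables together. By the ratio of the deposited values per genotype, on which the table was cut at a log2 ratio of -1.5 (2.83-fold), the 5 genes had -2.14 for *COR47*, -2.23 for *ERD10*, -2.80 for *XERO2*, -2.80 for *RD29A* and -4.27 for *HIS1-3*. The gene of the table nearest that limit was *RSH2* (AT3G14050), at -1.53, with 29.6 and 30.3 RPKM in *msil2/4* against 58.7 and 93.2 RPKM in Col-0. Genes just outside the limit were not analysed here.

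**Figure D2:**
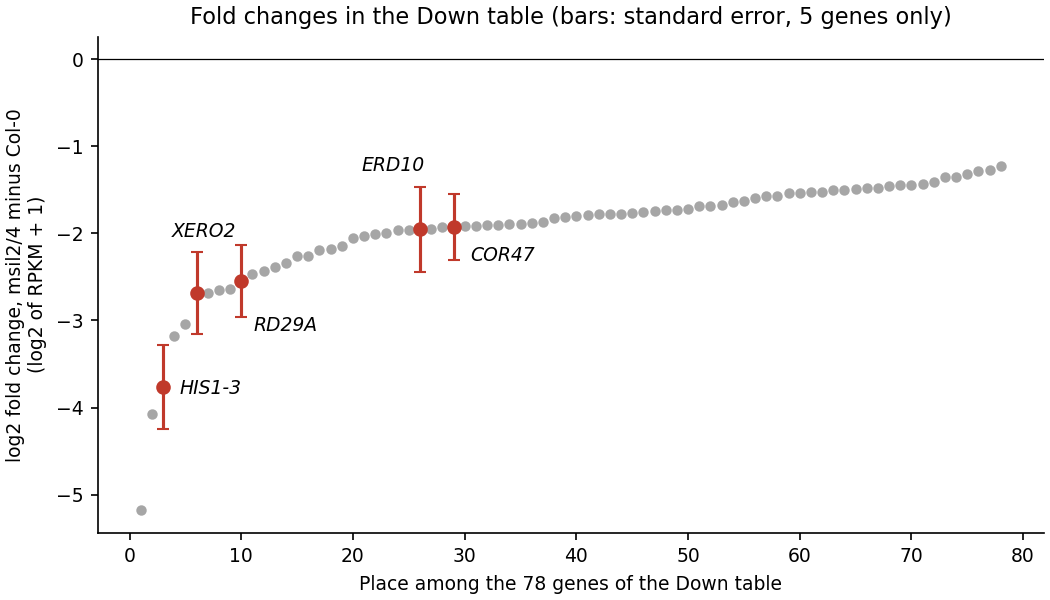
Log2 fold change, *msil2/4* minus Col-0 on the log2(RPKM + 1) scale, of the 78 genes of the lower table in rank order (grey), with the 5 genes in red and bars for their standard error. *HIS1-3* at -3.77 lies near the bottom end, and *ERD10* at -1.95 and *COR47* at -1.93 rank 26th and 29th from that end.

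The genes did not keep one order of level in all libraries. In both *msil2/4* libraries and in Col-0 replicate 1 the order from high to low was *COR47*, *ERD10*, *XERO2*, *RD29A* and *HIS1-3*. In Col-0 replicate 2 it was *XERO2*, *COR47*, *ERD10*, *HIS1-3* and *RD29A*. The *msil2/4* ranges of the 5 genes did not overlap one another. In Col-0 the ranges of the 3 dehydrins overlapped, those of *RD29A* and *HIS1-3* overlapped, and each dehydrin lay above both of these genes in every library.

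*HIS1-3* took 1.73% and 2.35% of the summed RPKM of the 5 genes in *msil2/4*, against 3.66% and 11.4% in Col-0. *COR47* stood at 22.8 and 18.7 times *HIS1-3* in *msil2/4*, against 9.89 and 2.62 times in Col-0. The ratio of *COR47* to *ERD10*, in contrast, stayed in one range, 1.28 and 1.48 in *msil2/4* against 1.14 and 1.60 in Col-0. *COR47* and *ERD10* are adjacent genes on the same strand of chromosome 1, 1029 bases apart, and their proteins share 71.0% of 248 aligned residues. That likeness is not particular to the pair. The protein of *ERD14*, a dehydrin gene in neither table, shares 69.2% of 185 aligned residues with COR47 and 71.6% of 183 with ERD10. The longest identical coding stretch of *COR47* and *ERD10* was 32 bases, shorter than the 75-nt reads. No read lying wholly within coding sequence can therefore match both of them without a mismatch. Matches with mismatches and reads from untranslated bases were not examined.

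Replicates of Col-0 did not move the 5 genes the same way. Replicate 1 was higher than replicate 2 for *ERD10* (1.19 on the log2 scale), *RD29A* (0.79) and *COR47* (0.70), and lower for *XERO2* (-0.49) and *HIS1-3* (-1.20). In *msil2/4* the differences between replicates were 1.06 for *XERO2*, 0.36 for *ERD10*, 0.16 for *COR47*, -0.11 for *HIS1-3* and -0.42 for *RD29A*. The median absolute difference over the 78 lower genes was 0.322 in *msil2/4* and 0.538 in Col-0. Against these, *XERO2* had the 5th largest of 78 differences in *msil2/4*, and *HIS1-3* and *ERD10* had the 7th and 8th largest in Col-0. Rescaling the Col-0 libraries by their median ratio left every sign in place, with 1.40 for *ERD10* and -0.99 for *HIS1-3*.

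**Figure D3:**
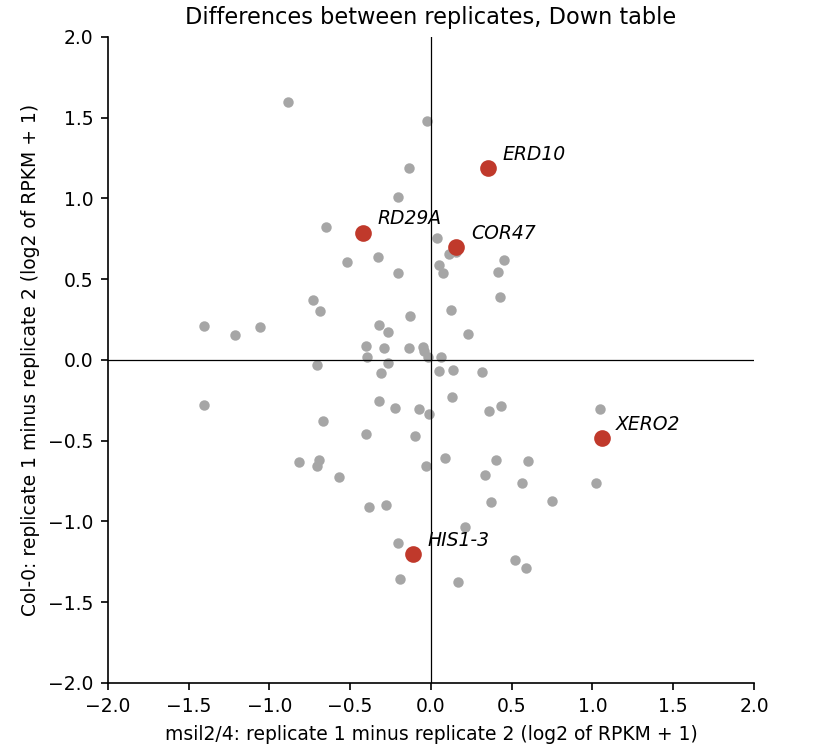
Difference between replicates, replicate 1 minus replicate 2 on the log2(RPKM + 1) scale, in *msil2/4* (horizontal) and in Col-0 (vertical), for the 78 lower genes (grey) and the 5 genes (red). *ERD10*, *RD29A* and *COR47* lie above the horizontal line, *XERO2* and *HIS1-3* lie below it, and *XERO2* lies far to the right at 1.06.

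For each gene, the other listed genes with the closest profile over the 4 libraries were found by the root mean square difference of log2(RPKM + 1) after each gene's mean was removed, over 233 other genes. Because it uses the genotype difference and only 4 libraries, this is a description of likeness. *COR47* had the closest companions, *IPCS1* (AT3G54020) at 0.016, *LEA14* (AT1G01470) at 0.025 and *ERD7* (AT2G17840) at 0.069. *IPCS1* encodes an inositol phosphorylceramide synthase of sphingolipid metabolism, and it had 11.9 and 10.6 RPKM in *msil2/4*, against 56.6 and 35.4 RPKM in Col-0. *LEA14* encodes a late embryogenesis abundant (LEA) protein of another group than the dehydrins. The genomic neighbour *ERD10* was only 8th in likeness to *COR47*, at 0.186.

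*XERO2* was matched most closely by *CYSTM1* (AT1G05340), which encodes a small cysteine-rich membrane protein, at 0.065. *CYSTM1* had 8.84 and 3.77 RPKM in *msil2/4*, against 38.7 and 48.0 RPKM in Col-0. The wide spread in *msil2/4* and the higher Col-0 replicate 2 are part of the profile on which it was matched. The next in likeness to *XERO2* were *AHP4* (AT3G16360) at 0.347 and *ERF073* (AT1G72360) at 0.398.

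*ERD10* was closest to *GDPDL3* (AT4G26690), *COR47* and *IPCS1*, at 0.179, 0.186 and 0.199. *RD29A* was closest to *WRKY18* (AT4G31800), a defence-related transcription factor gene, at 0.182, then to AT5G62360 at 0.263 and AT5G10695 at 0.277. *HIS1-3* had no close companion, the nearest being the flowering repressor gene *FLC* (AT5G10140) at 0.413, then *AHP4* at 0.608 and *BGAL4* (AT5G56870) at 0.707. The 5 genes were seldom nearest to each other, and *COR47* beside *ERD10* was the only case among the nearest 3.

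**Figure D4:**
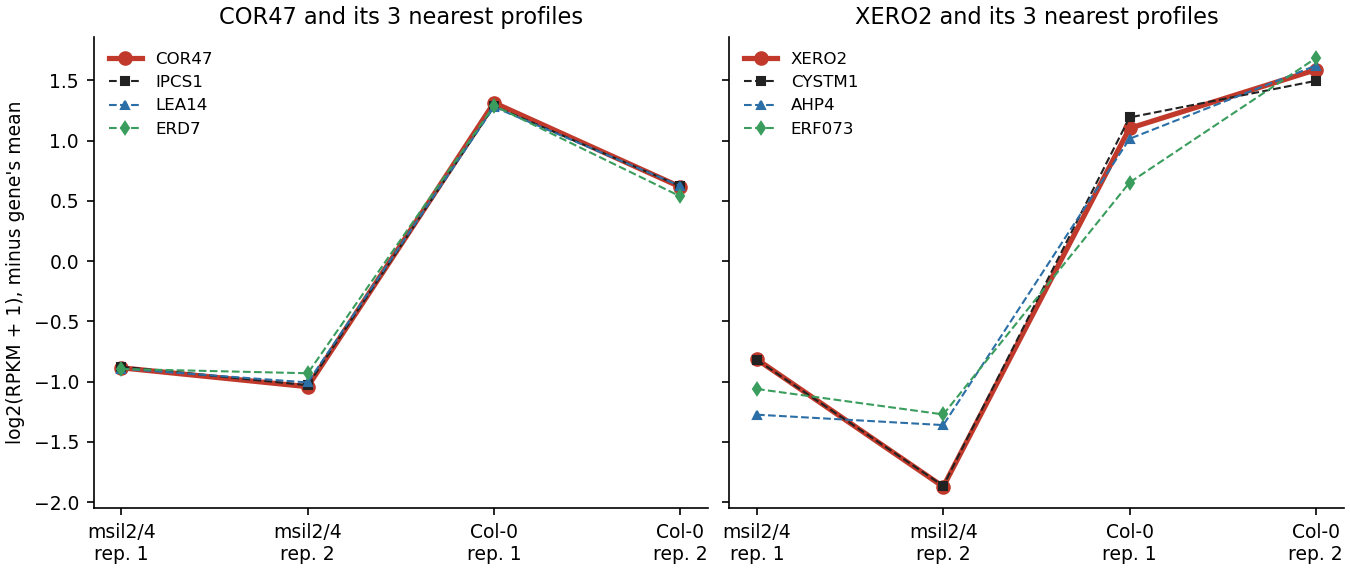
log2(RPKM + 1) minus the gene's own mean in the 4 libraries, *msil2/4* left and Col-0 right, for *COR47* (left panel, red) and *XERO2* (right panel, red) with the 3 listed genes of closest profile. Lines only join the values of one gene, and they show that *COR47* and its companions were higher in Col-0 replicate 1, while *XERO2* and *CYSTM1* were higher in Col-0 replicate 2.

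The relatives of these genes were looked up in both tables, from lists chosen with earlier results of these data known. A gene in neither table did not meet the limits used to make them or was filtered out, and its level was not analysed here. Of 10 dehydrin genes on the list, *COR47*, *ERD10* and *XERO2* were in the lower table and none was in the higher one. These 3 genes, like *HIS1-3* and *RD29A* below, were taken from the lower table, so their own listing follows from the choice. Of all annotated protein-coding genes, 0.277% were in the lower table. The other 7 dehydrin genes, among them *ERD14*, the ABA-induced *RAB18* and *XERO1*, were in neither. *XERO1* begins 313 bases after *XERO2* on the same strand. Of 3 linker histone genes, only *HIS1-3* was listed, and the main linker histone genes H1.1 and H1.2 were in neither table. *RD29B*, which ends 1185 bases before *RD29A* on the same strand and whose protein shares 69.1% of 525 aligned residues with RD29A, was in neither table.

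Other LEA and ERD genes, 13 on the list, had 3 in the lower table and none in the higher one. *LEA14* had 77.3 and 71.3 RPKM in *msil2/4*, against 352 and 223 RPKM in Col-0. The LEA gene AT2G23120 had 43.7 and 81.5 RPKM in *msil2/4*, against 583 and 192 RPKM in Col-0. *ERD7* had 56.5 and 55.2 RPKM in *msil2/4*, against 261 and 154 RPKM in Col-0. The log2 fold changes of these 3 genes were -1.90, -2.47 and -1.83. All of them were higher in Col-0 replicate 1 than in replicate 2, as were *COR47*, *ERD10* and *RD29A*, while *XERO2* and *HIS1-3* were lower. Of the 78 lower genes, 37 (47.4%) were higher in Col-0 replicate 1.

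For scale, the lower table holds 0.277% of the annotated protein-coding genes and the higher one 0.565%, so a gene in neither table is the usual case and being unlisted says nothing particular about a list. None of 7 CBF and DREB genes, of 6 other cold-induced genes or of 6 genes of ABA synthesis and breakdown was in either table. Of 20 genes of ABA perception and signalling, 2 were in the lower table and none in the higher one. *PYL6* (AT2G40330), an ABA receptor gene, had 20.9 and 15.2 RPKM in *msil2/4*, against 42.6 and 52.1 RPKM in Col-0. *AFP4* (AT3G02140), a gene of the family whose proteins bind the ABA factor ABI5, had 2.24 and 2.41 RPKM in *msil2/4*, against 7.36 and 9.33 RPKM in Col-0. Over all 67 genes on the 8 lists, the 5 genes described here included, 10 were in the lower table, 57 were in neither and 0 were in the higher one, from counts of listing with no test.

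Among 21 markers of xylem and fibres, phloem, epidermis, leaf mesophyll, seed and senescence, 0 were in either table. The tissue named in the labels therefore could not be checked from these values, nor could RNA from other cell types. *MSIL2* and *MSIL4* were in neither table, so the genotype labels could not be checked either.

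The sequences before the gene starts are shown next for *XERO2* and *RD29A*, the only genes of the 5 with a DRE core within 250 bases. Both are from the TAIR10.1 assembly with RefSeq gene starts, read in the direction of the gene, and capitals mark matches to ACCGAC or GCCGAC on either strand.
XERO2, chr3:18940393-18940642, plus strand: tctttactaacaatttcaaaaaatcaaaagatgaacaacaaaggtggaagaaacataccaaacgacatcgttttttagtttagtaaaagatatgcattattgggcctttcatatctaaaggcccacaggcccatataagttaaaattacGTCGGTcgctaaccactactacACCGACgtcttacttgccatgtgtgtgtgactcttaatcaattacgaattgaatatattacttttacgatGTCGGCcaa
RD29A, chr5:21240467-21240716, plus strand: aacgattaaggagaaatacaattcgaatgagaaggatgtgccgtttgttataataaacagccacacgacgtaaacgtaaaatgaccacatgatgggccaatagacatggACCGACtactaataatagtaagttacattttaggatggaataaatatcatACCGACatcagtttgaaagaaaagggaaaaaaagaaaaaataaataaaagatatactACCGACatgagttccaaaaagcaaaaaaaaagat
*XERO2* held 3 matches, starting 101, 79 and 9 bases before the gene, and *RD29A* held 3, starting 141, 91 and 34 bases before it. At least 1 match in this window occurred in 7.09% of 27438 promoters, and 3 or more in 0.0729%.

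In the wider window of 1000 bases each of the 5 genes held at least 1 DRE core, as did 22.3% of all promoters, 32.9% of the 76 promoters found for the lower table and 23.2% of those found for the higher table. The further sites are given with 12 bases on each side, also on the strand of the gene.
ERD10, chr1:7090198-7090227, minus strand: ttgatattttctGCCGACgtggcataagaa
ERD10, chr1:7090162-7090191, minus strand: ttggcccacatgACCGACatccacgcttaa
COR47, chr1:7087224-7087253, minus strand: ttggtatcatgtGTCGGTagagtgaccacc
HIS1-3, chr2:7845597-7845626, plus strand: gtattagtaaatACCGACcaaaaaaaatat
They start 609 and 573 bases before *ERD10*, 368 bases before *COR47* and 314 bases before *HIS1-3*. The window of *XERO2* runs into *PLP3a*, the divergent gene 214 bases away.

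The ABA-responsive core ACGTG was absent from the 250 bases before the annotated start of all 5 genes, where 22.9% of promoters held it. In 1000 bases it occurred before *ERD10* alone, where 54.4% of promoters held it. There it had 5 matches, 4 of them from the copies of the palindrome CACGTG 499 and 413 bases before the gene, which read as ACGTG on both strands and are shown here.
ERD10, chr1:7090088-7090117, minus strand: acgttctcttgaCACGTGtttaccatatat
ERD10, chr1:7090002-7090031, minus strand: attatttattttCACGTGgcatgatggcta
The remaining match overlaps the DRE core that starts 609 bases before *ERD10*. The evening element AAAATATCT, which the circadian clock uses, was in none of the 5 windows at either length, against 7.24% of promoters over 1000 bases. These matches describe letters before the annotated start and say nothing of which factors bind there. Bases after that start, untranslated ones included, were not searched, so an absence covers only the bases before it. The annotated transcripts hold 2320 bases for *COR47* (798 coding), 1614 for *ERD10* (783 coding) and 2663 for *RD29A* (2133 coding). Those of *XERO2* and *HIS1-3* hold 969 bases (582 coding) and 961 bases (504 coding).

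**Figure D5:**
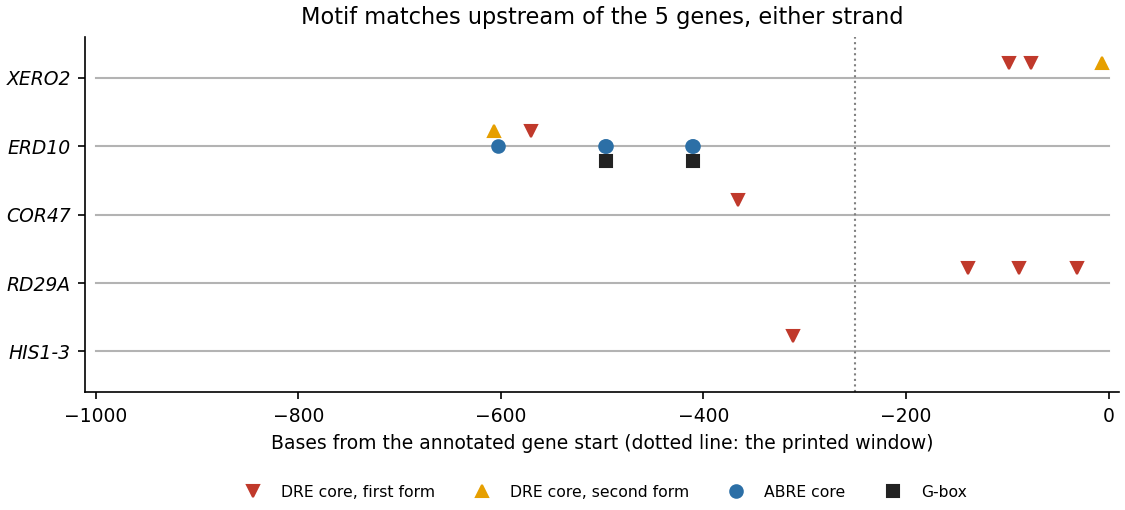
Matches on either strand in the 1000 bases before the annotated start of each gene, by distance from the start, with triangles for the DRE core (downward for ACCGAC and upward for GCCGAC in the text), circles for the ABA-responsive (ABRE) core and squares for its palindromic form, the G-box. *XERO2* and *RD29A* have 3 DRE cores each inside the dotted line at 250 bases, and *ERD10* is the only gene with circles and squares.

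The 5 genes encode unusually hydrophilic proteins, which the choice by gene identifier did not use directly although the family names imply it for dehydrins. Mean hydropathy on the Kyte-Doolittle scale, where negative values are hydrophilic, was -1.25 for COR47 (265 residues), -1.35 for ERD10 (260 residues), -1.17 for XERO2 (193 residues), -1.09 for RD29A (710 residues) and -1.17 for HIS1-3 (167 residues). The median of 27373 annotated proteins was -0.29, and the 5 lay between the 0.709 and the 2.31 percentile. The trait was not particular to them. The 7 unlisted dehydrins ranged from -1.87 (HIRD11) to -0.77 (AT4G39130), and RD29B had -0.97. None of the 5 contains cysteine, and neither do H1.1, H1.2, RD29B or the unlisted dehydrins other than AT4G38410. Of all annotated proteins 2.37% lack both cysteine and tryptophan, as do the 5 except RD29A. Lysine made up 25.1% of HIS1-3, at the 99.9 percentile, 16.2% of ERD10, 14.0% of COR47, 11.9% of XERO2 and 7.75% of RD29A, against a median of 6.27%. HIS1-3 was more hydrophilic than H1.1 (-0.57) and H1.2 (-0.61). It was also shorter, at 167 residues against 274 and 273, with 47.0% and 45.7% identity over 164 aligned residues. In lysine HIS1-3 was close to H1.1 and H1.2, which held 23.4% and 23.8%.

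In the TAIR10.1 annotation *XERO2* lies on chromosome 3 (18940643 to 18941611, plus strand) as a single exon with 582 coding bases. *ERD10* lies on chromosome 1 (7087903 to 7089606, minus strand, 2 exons) beside *COR47* (7084409 to 7086873, minus strand, 2 exons). *RD29A* lies on chromosome 5 (21240717 to 21243644, plus strand, 4 exons), and *HIS1-3* lies on chromosome 2 (7845923 to 7847031, plus strand, 2 exons) between *PIN1AT* and *VND1*. Of the direct neighbours of the 5 genes, only *COR47* and *ERD10*, which neighbour each other, were in a table.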

How the data were processed

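Basal stem mRNA of *msil2/4* and Col-0 plants was sequenced in 2 libraries per genotype, grouped by the sample labels. For library preparation the labels give NEBNext Ultra II Directional and the study's methods TruSeq stranded, both of which keep the strand. Per the labels, single-end reads of 75 nt were made, 30000000 per library. The authors aligned them to TAIR10 with TopHat2 2.0.7 and Bowtie2 2.3.4, quantified them with Cufflinks 2.2.1 and compared genotypes with Cuffdiff, whose version is not given in the sources used here. In the 2 tables the authors deposited RPKM, per library and per genotype, of those genes that they called different by a log2 ratio beyond 1.5 and, per the file headers, a P value of 0.05, where the study's text gives a false discovery rate. The study states a filter at 1 RPKM, yet 64 listed genes, none of the 5, were below it in at least 1 library. Their log2 fold change column was not used. RPKM hide depth, and only called genes were analysed here, so no count model was run and precision rests on 2 libraries per genotype. Unlisted genes were not analysed here.

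Values were transformed as log2(RPKM + 1) and fitted over all 234 genes with limma 3.58.1 in R 4.3.3, for fold changes and standard errors only. The fit borrows its prior spread from genes selected for a difference. It was tested on simulated data in which genes were not selected for a genotype difference, so that test does not cover the effect of the selection. The members and gene lists were chosen with earlier results of these data known. Genes named were the 5, the listed genes of the 8 lists, the 3 nearest profiles of each, direct genomic neighbours and the gene nearest the limit. A further gene is named for a family or an overlap. Sequences and proteins came from RefSeq's TAIR10.1 annotation, in which 231 of 234 identifiers were protein-coding genes, with Biopython 1.88. Alternatives were pseudocounts of 0.1 and 0.01, a filter at 1 RPKM, 3 ways of using the deposited values per genotype (1 of them chosen after seeing the data), a replicate block and each library left out.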

Additional observations from a re-analysis of the deposited data

How the results depend on the processing

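All 5 genes stayed lower in *msil2/4* under the 11 alternatives run for each. The direction could hardly change, because each gene's lowest Col-0 value was at least 2.28 times its highest *msil2/4* value. The alternatives therefore bear on the size of the differences only. Leaving out 1 library at a time gave log2 fold changes of -3.22 to -2.16 for *XERO2*, -2.55 to -1.36 for *ERD10*, -2.28 to -1.58 for *COR47*, -2.94 to -2.15 for *RD29A* and -4.37 to -3.17 for *HIS1-3*. The remaining alternatives fell inside these ranges. The median of the 5 genes was -2.54, and it ran between -2.80 and -2.15. The deposited values per genotype sit a median of 0.938 times the plain mean of the libraries in *msil2/4* and 1.06 times in Col-0, and rescaling to them shifted the median log2 fold change of all listed genes by -0.14. Whether the replicate numbers pair the libraries cannot be settled here. The replicate differences of the genotypes had r = 0.067 across all listed genes and -0.21 across the 78 lower genes. These genes are not independent and were selected for a genotype difference. With the replicate block the log2 fold changes stayed as they were, -3.77 for *HIS1-3* and -2.69 for *XERO2*, and each standard error became 0.51. The crossed block was not run. With 2 libraries per genotype and no read totals, counting error is unknown.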
